A study of Drosophila melanogaster with 2 samples.

Results

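The CD36-like scavenger receptors of Drosophila melanogaster were followed in whole embryos with and without blood cells. The genes were chosen by family membership, with earlier ratios of these same arrays known, as the listed symbols crq, ninaD, emp, santa-maria, pes, dsb and Snmp1. Of these 7 symbols, 5 had a probe that the platform annotation assigns to that gene alone, out of 8224 genes measured in all. The genes dsb, which acts in the breakdown of engulfed material in lysosomes, and Snmp1, which acts in pheromone detection by olfactory neurons, had no such probe and were not analysed here. The family also holds genes outside that list, and 7 of them were added as a list of their own (Snmp2, CG7227, CG3829, CG10345, CG31741, CG40006 and CG2736). Of these, 5 were measured, so that 10 of 14 family genes had values.

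The compared groups were hemocyte minus embryos, which carry a mutation in serpent (srp), and hemocyte plus embryos, which are wild type. Total RNA of both groups was hybridised together on 2 arrays with the dyes swapped, named A and B, with hemocyte minus RNA in Cy3 on array A and in Cy5 on array B. The labels call the embryos of array A unwounded and do not repeat the word for array B. The sources used here name neither the srp allele nor the age of the embryos, nor whether the arrays held separate RNA extracts. Errors after ± are SDs of the 2 arrays and may be technical. The gene srp encodes a GATA transcription factor that the embryo needs to form its hemocytes and its fat body, so the mutant is not a model of missing hemocytes alone. What part of any ratio goes with an effect of the mutation on other tissues, such as the midgut, was not tested.

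Proteins of the CD36 family span the cell membrane near both of their ends and hold a large loop outside the cell or in the lumen of an endosome, which binds lipids, lipoproteins, bacteria or the surface of dying cells. In the fly they are known for the clearance of apoptotic cells by macrophages, for the uptake of carotenoids used to make the visual pigment, and for lipid signals in olfaction. Embryonic macrophages are called plasmatocytes, and crystal cells are blood cells that carry prophenoloxidase, the enzyme precursor of melanin formation.

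All values are log2 ratios of hemocyte minus over hemocyte plus embryos, centred on the median probe of each array. A value of -1 stands for a halving and 1 for a doubling. The sources used here do not name the dye in the numerator of the deposited ratios. Cy3 was taken as the numerator because the crystal cell genes PPO1 and PPO2 were then lower in hemocyte minus embryos, at -4.87 ± 0.08 and -3.71 ± 0.28, and this direction is therefore likely rather than settled. All signs below turn if Cy5 was the numerator, in which case PPO1 stands at 4.87. The mutated gene srp lay at -0.15 (array A) and -0.36 (array B) and did not pass limma (adjusted p = 0.221). Since the position of its probe relative to the lesion is not known, it does not check the genotype. Marker lists placed the other cell types. Their counts stand against 13.4% of all genes that passed limma, 5.27% as lower and 8.18% as higher in hemocyte minus embryos. Of 11 measured plasmatocyte markers 8 passed limma as lower in hemocyte minus embryos (list median -0.80, range -2.39 to 0.03). They were led by the extracellular matrix gene Ppn at -2.39 ± 0.10, the peroxidasin gene Pxn at -1.46 ± 0.08 and the collagen gene Col4a1 at -1.01 ± 0.13. The 2 probes of Pxn lay at -1.71 and -1.21 and those of Col4a1 at -0.74 and -1.28. The markers that did not pass were srp, vkg at -0.22 and eater at 0.03. In the limma test against a 1.2-fold difference, 6 plasmatocyte markers passed, without Hml (adjusted p = 0.261) and SPARC (adjusted p = 0.0578). With marked probes left out 7 passed, without NimC1 (adjusted p = 0.0829). Of 4 crystal cell markers, PPO1 and PPO2 set the direction and are not counted as evidence of it, and klu and peb, at -0.28 and -0.17, did not pass. Of 7 fat body markers 4 passed as lower in hemocyte minus embryos (median -0.73, range -1.33 to 0.15), namely apolpp at -1.33, Fbp1 at -0.77, bmm at -0.74 and FASN1 at -0.73. Against a 1.2-fold difference Fbp1 (adjusted p = 0.127) and FASN1 (adjusted p = 0.0674) no longer passed, which left 2.

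Ratios of the family genes pointed both ways. Among the 10 measured genes, 6 were below 0 on both arrays, 2 were above 0 on both arrays (emp and CG10345), and 2 had opposite signs on the arrays (santa-maria and CG40006). The mean ratios of the 5 listed genes spanned 4.66 on the log2 scale. The median ratio of the 5 was -0.17 and that of all 10 was -0.30, against 0.00 for all genes. The median size of the ratio, without its sign, was 0.50 for the 5 and 0.56 for the 10, against 0.17 for all genes. Values of the 5 listed genes are given as a description, without p-values, since they were chosen with these ratios known.

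**Figure D1:**
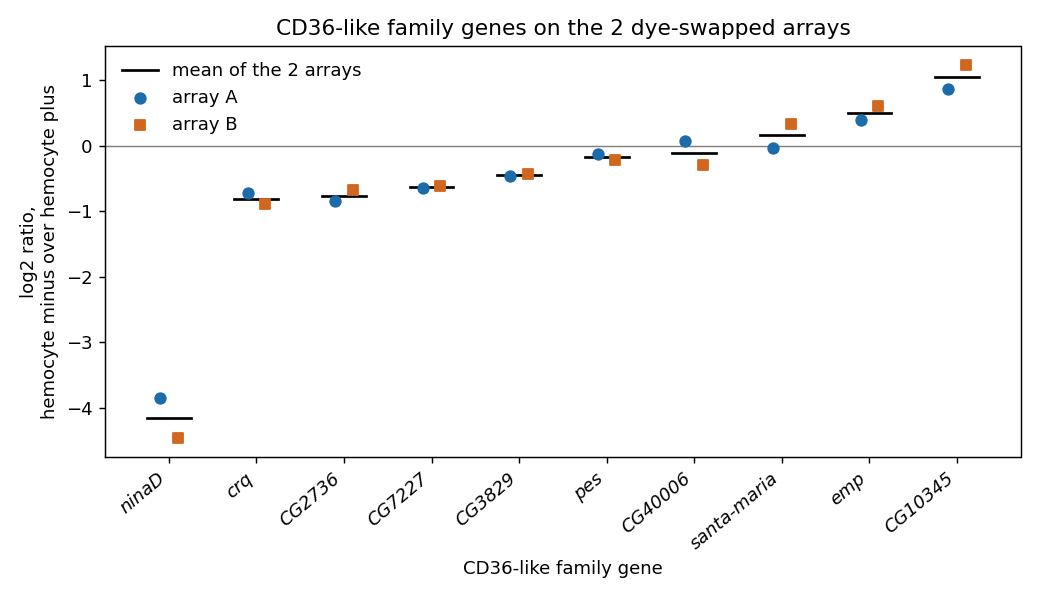
Log2 ratio of hemocyte minus over hemocyte plus embryos (vertical axis) for the 10 measured CD36-like genes, ordered by their mean; circles are array A, squares are array B and the black lines are means. The gene ninaD stands far below the others at -3.85 and -4.46, 3 genes lie between -0.89 and -0.61 on both arrays, and CG10345 is highest at 0.86 and 1.24.

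The carotenoid receptor gene ninaD carried the largest difference of the family. Its product takes up dietary carotenoids in the adult fly, a step that precedes the synthesis of the visual chromophore. The deposited ratio of its probe, the cDNA clone RE41741, was -0.0686 for array A and -22.4 for array B, where the size of the value is the dye ratio. After turning and centring, the log2 ratios of ninaD were -3.85 and -4.46. Its RNA was thus 14.4-fold lower in hemocyte minus embryos by array A and 21.9-fold lower by array B. The mean of -4.15 ± 0.43 (SD, n = 2 arrays), a 17.8-fold difference, ranked 2 of 8224 genes by size, behind PPO1 alone. The arrays differed by 0.61 for this gene, and 5.53% of all genes had a larger difference between arrays, yet both values lay far beyond those of any other family gene.

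The genes nearest to ninaD, by distance over the 2 arrays, were PPO2 and the cytochrome P450 gene Cyp12c1. PPO2 lay at -3.52 on array A and -3.91 on array B, a distance of 0.64, and Cyp12c1 at -3.69 and -3.52, a distance of 0.95. No gene lay within 0.5 of ninaD. In whole embryos, fewer cells of a type and less RNA per cell cannot be told apart, for ninaD as for the other genes. The 3 measured non-family genes among the 3 protein-coding genes on each side of ninaD on chromosome arm 2L had ratios between -0.19 and 0.00, and none passed limma. The adjacent family gene CG31741 was not measured, and the RefSeq gene table lists the older name CG5750 for both genes. Whether the ninaD probe also binds CG31741 transcripts was not tested.

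**Figure D2:**
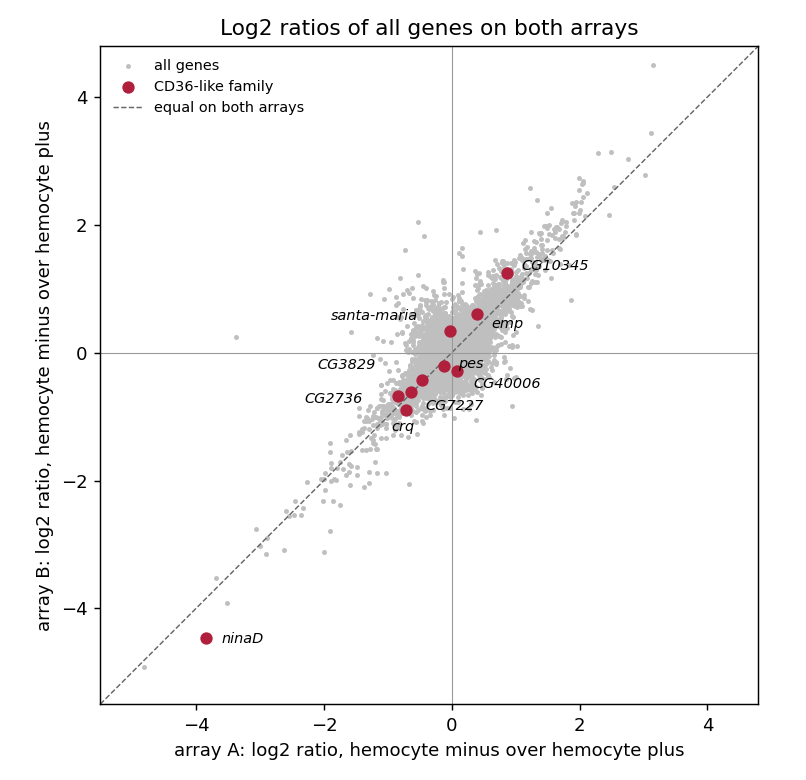
Log2 ratio of hemocyte minus over hemocyte plus embryos on array A (horizontal axis) against array B (vertical axis) for 8224 genes (grey) and the 10 CD36-like genes (red), with a dashed line where the arrays are equal. The point of ninaD sits at the lower left end near PPO2, while santa-maria and CG40006 lie off the diagonal close to 0.

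The gene crq (croquemort) encodes a receptor by which embryonic macrophages recognise apoptotic cells. Its log2 ratio was -0.72 by array A and -0.89 by array B, so both arrays put it lower in hemocyte minus embryos. The mean of -0.81 ± 0.12 is a 1.75-fold difference, and 5.84% of all genes had a ratio of larger size. The median plasmatocyte marker, at -0.80, had nearly the same ratio, while the markers ranged from Ppn at -2.39 to the phagocytosis receptor gene eater at 0.03. That median marker is Glt, a secreted glycoprotein of hemocytes, whose 2 probes differed, at -1.52 and -0.08. The nearest genes over both arrays were JhI-26 and CG32687, each with a mean of -0.84 and a distance of 0.04. With 320 genes within 0.5 of crq, this likeness is shared by many genes. The overlapping gene ex lay at -0.18 and did not pass limma.

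The epithelial receptor gene emp (epithelial membrane protein) lay on the other side. Its log2 ratio was 0.40 by array A and 0.61 by array B, with a mean of 0.50 ± 0.15, or 1.42-fold higher in hemocyte minus embryos. Its product is found in embryonic epithelia, the trachea among them. Among all genes 13.4% passed limma. Of 5 measured tracheal markers, 1 passed limma, the lumen protein gene pio, which was lower in hemocyte minus embryos at -0.48 ± 0.17 (adjusted p = 0.0494). The call of pio ended when the probe of largest change stood for each gene (adjusted p = 0.0605), when marked probes were left out (adjusted p = 0.0607) and in a test against a 1.2-fold difference (adjusted p = 0.431). The other 4 markers did not pass, with Gasp at 0.43 ± 0.23, knk at 0.37 ± 0.02 and serp at 0.34 ± 0.30 above 0 and verm at -0.24 ± 0.27 below 0, and the list median was 0.34. What part of the value of emp goes with the trachea was not tested.

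The remaining listed genes stayed close to the median gene. The gene pes (peste), whose product is needed for mycobacterial uptake in cultured fly phagocytes, lay at -0.12 and -0.21 on arrays A and B, a mean of -0.17 ± 0.06. The gene santa-maria, which acts in neurons and glia to take up carotenoids for chromophore synthesis, lay at -0.03 and 0.34 on arrays A and B. Its mean of 0.16 ± 0.26 is smaller than its spread, and the arrays do not give it one direction. Of all genes, 50.9% had a ratio of larger size than pes and 52.6% one of larger size than santa-maria. None of 5 glia markers passed limma (list median -0.11), and 1 had an unadjusted p under 0.05. Among all genes 13.4% passed. Of 5 neuron markers 2 passed as higher in hemocyte minus embryos (list median 0.37), Gad1 at 0.68 ± 0.02 and nSyb at 0.46 ± 0.09. The call of nSyb was lost where the probe of largest change stood for each gene (adjusted p = 0.0561) and where marked probes were left out (adjusted p = 0.0565), and against a 1.2-fold difference neither passed (adjusted p = 0.064 for Gad1 and 0.473 for nSyb).

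Of the 5 listed genes, 1 (ninaD) was at least 2-fold from 1 on both arrays. Among all genes 2.99% were, and 1.17% were so as lower in hemocyte minus embryos. The limma fit over all genes, which includes these 5, called 3 of them, ninaD and crq as lower and emp as higher in hemocyte minus embryos. Among all genes 13.4% were called, 5.27% as lower and 8.18% as higher. Nothing is read from these counts, because the genes were chosen with the ratios known. The call of emp ended under 3 of the 5 alternatives to this fit, which left 2 calls.

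The family genes outside the listed symbols were tested in the same limma fit. Of the 5 measured, 4 passed, 3 as lower and 1 as higher in hemocyte minus embryos. Among all genes 13.4% passed, 5.27% as lower and 8.18% as higher. This list was also drawn up with earlier results of these data known, so its count and p-values are given as a description. The list median was -0.44. No role is given here for these genes, which the annotation knows by number. CG2736 was lower at -0.84 and -0.67 on arrays A and B (mean -0.76 ± 0.12, 1.69-fold, limma adjusted p = 0.00938). CG7227 was lower at -0.64 and -0.61 (mean -0.63 ± 0.02, 1.54-fold, adjusted p = 0.0155). CG3829 was lower at -0.46 and -0.43 (mean -0.44 ± 0.02, 1.36-fold, adjusted p = 0.0485). For these 3 genes the arrays differed by at most 0.17, which is also the median difference over all genes. CG3829 no longer passed where the probe of largest change stood for each gene (adjusted p = 0.057) or where marked probes were left out (adjusted p = 0.0576), although its own ratio stayed the same. Against a 1.2-fold difference, neither CG3829 (adjusted p = 0.525) nor CG7227 (adjusted p = 0.0986) passed. CG10345 was higher in hemocyte minus embryos at 0.86 and 1.24 on arrays A and B (mean 1.05 ± 0.27, 2.07-fold, adjusted p = 0.00523), the highest ratio of the family. CG40006 lay at 0.08 and -0.29 and did not pass (adjusted p = 0.658).

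In the order of the 10 mean ratios, from ninaD at the low end to CG10345 at the high end, the values of the 2 arrays overlapped for 3 of the 9 neighbouring pairs. These were crq and CG2736, pes and CG40006, and CG40006 and santa-maria. The gap between ninaD and crq, the next gene, was 3.34, while no other gap exceeded 0.55. All 5 listed genes had the larger ratio, without its sign, on array B. Among all genes 51.6% did, and among those at least 2-fold on both arrays 71.5% did.

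Several family genes lie side by side in the Release 6 gene order, and adjacent genes had different ratios. On chromosome arm 2R, emp lies between CG2736 and CG3829. The ratio of emp exceeded that of CG2736 by 1.24 on array A and 1.28 on array B, a mean of 1.26 ± 0.03. It exceeded that of CG3829 by 0.86 and 1.04 on these arrays. The outer genes of this cluster were lower in hemocyte minus embryos and the middle one was higher on both arrays. Next to CG2736 on its other side lies Phk-3, named after its value was seen, which passed limma as higher at 1.94 and 1.85. The gene models of emp and CG3829 overlap, and whether either probe reads both transcripts was not tested. On arm 2L, pes lies next to CG7227, and its ratio exceeded that of CG7227 by 0.51 on array A and 0.41 on array B. Around pes, the non-family genes CG7231 at -0.73 and Sirup at -0.45, named after their values were seen, also passed limma as lower in hemocyte minus embryos.

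**Figure D3:**
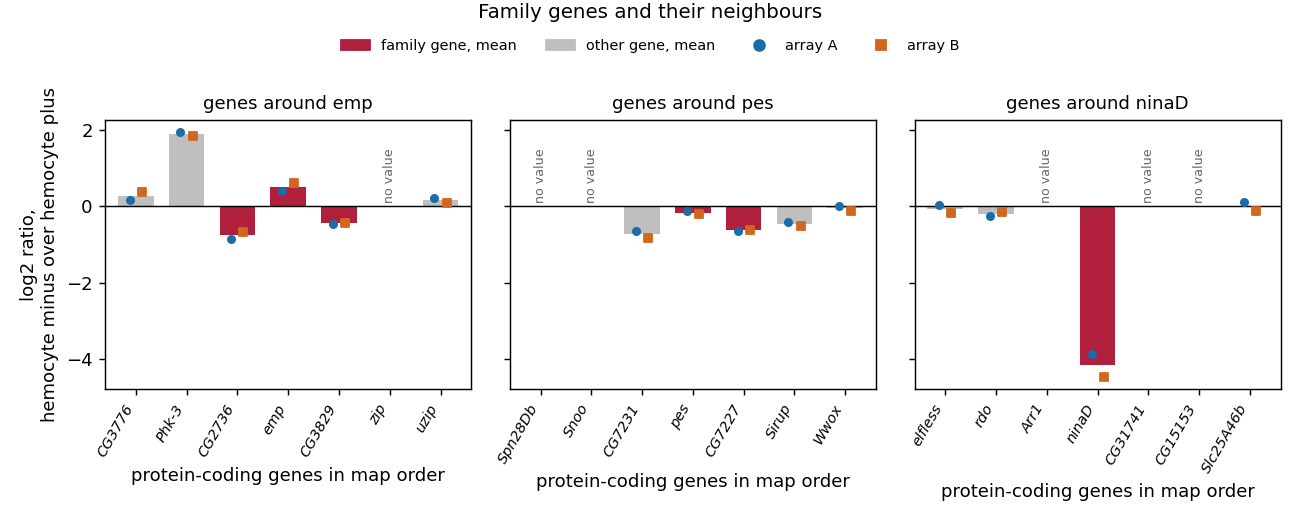
Log2 ratio of hemocyte minus over hemocyte plus embryos (vertical axis) for emp, pes and ninaD and the 3 protein-coding genes on each side in map order (horizontal axis); bars are means from 0, red for family genes and grey for others, with circles for array A and squares for array B. The bar of emp at 0.50 stands between those of CG2736 at -0.76 and CG3829 at -0.44, and ninaD at -4.15 stands among genes near 0.

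Other receptors of phagocytes were in part lower as well. Among all genes 5.27% passed limma as lower in hemocyte minus embryos and 8.18% as higher. Of 9 measured phagocytic and scavenger receptors outside the family (19 listed), 4 passed as lower and none as higher (list median -0.25). They were NimC4, a receptor for apoptotic cells, at -1.73 ± 0.24 (adjusted p = 0.000985), NimC1, a phagocytosis receptor for bacteria, at -1.01 ± 0.05, and the Nimrod genes NimB2 at -0.95 ± 0.08 and NimB4 at -0.73 ± 0.13. When marked probes were left out, NimC1 lay at -0.39 without passing (adjusted p = 0.0829) and NimB2, whose only probe is marked, had no value. NimB4 did not pass against a 1.2-fold difference (adjusted p = 0.051), which left 3. The engulfment receptor gene drpr lay at -0.22 ± 0.05 and eater, another receptor for bacteria, at 0.03 ± 0.29, and neither passed. NimB1 had opposite signs on the arrays, at -0.52 on array A and 1.21 on array B. NimC1 and eater are also plasmatocyte markers, so the receptor and plasmatocyte lists are not independent.

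None of the 6 measured genes of the engulfment machinery list (13 listed) passed limma, and 2 had an unadjusted p under 0.05. Among all genes 13.4% passed, so nothing is read from the count in so small a list. The 6 genes ranged from prtp, which encodes a ligand of the Draper receptor on dying cells, at -0.31 ± 0.12 to jp at 0.30 ± 0.03. What part jp takes in engulfment was not tested. The list median was 0.02. With the probe of largest change jp lay at 0.60 and passed (adjusted p = 0.0392); its 5 probes ranged from 0.03 to 0.60.

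Of 12 listed genes of the carotenoid and visual pigment pathway, 5 were measured, and ninaA, ninaE and the listed Rh genes were not. None of the 5 passed limma, and 1 had an unadjusted p under 0.05. With 13.4% of all genes passing, nothing is read from this count. The gene ninaB, whose product cleaves carotenoids, lay at -0.34 and 0.08 on arrays A and B, a mean of -0.13 ± 0.30. The retinoid-binding protein gene pinta lay at -0.24 ± 0.01 and rdhB, a retinol dehydrogenase gene, at 0.48 ± 0.53. The list median was 0.13, against the ratio of -4.15 of ninaD itself. None of the 3 listed genes of pheromone detection, the background of Snmp1, was measured.

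Of all genes, 5.27% passed limma as lower and 8.18% as higher in hemocyte minus embryos. Among 8 measured genes of lipoprotein and sterol carriage, 3 passed as lower and 1 as higher, with a list median of 0.08. The lower ones encode the lipoproteins and the protein that loads them: apolpp, the main lipoprotein of the hemolymph, at -1.33 ± 0.24 (adjusted p = 0.00209), the lipid transfer particle gene Apoltp at -0.96 ± 0.02, and Mtp at -0.91 ± 0.24. The higher one was Cubn, an endocytic receptor of nephrocytes, at 0.56 ± 0.14 (adjusted p = 0.0278). Cubn no longer passed against a 1.2-fold difference (adjusted p = 0.202). The lipophorin receptor genes LpR1 and LpR2 lay at 0.29 ± 0.10 and 0.06 ± 0.33 and did not pass. The gene apolpp is also one of the fat body markers. Midgut markers went both ways, 2 lower and 2 higher of 7 measured, from the amylase gene Amy-p at -1.80 to the metallothionein gene MtnA at 2.57. Amy-p has a near-identical copy, Amy-d, and a probe may not separate them.

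**Figure D4:**
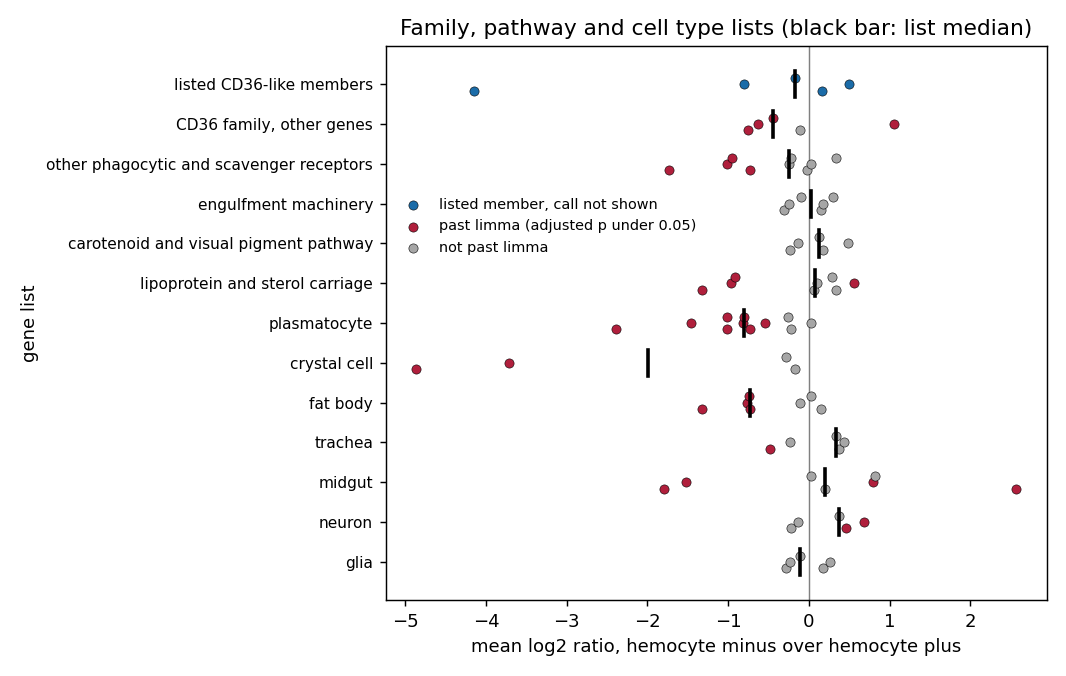
Mean log2 ratio of hemocyte minus over hemocyte plus embryos (horizontal axis) for each measured gene of the listed CD36-like members, the other family genes, the pathway lists and the cell type markers (rows); red points passed limma, grey points did not, blue points are the listed members, shown without their calls, and black bars are list medians. The medians of the plasmatocyte and fat body rows lie at -0.80 and -0.73, and those of the engulfment and carotenoid rows at 0.02 and 0.13.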

How the data were processed

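For each of 12144 probes the authors deposited a negative score per array (median -0.989 for array A and -1.021 for array B), which was read as a linear dye ratio with a minus sign. The sources used here do not state the numerator dye, background correction, normalization or centring, and signal over background is unknown. The log2 of each size was taken, array B was turned against array A by the dyes in the labels (Pearson r = -0.689 over probes before turning), and the median of every array was set to 0. The platform annotation gave 1 symbol for 9917 probes, and probes with several (625) or none (1602) were left out. Probes of a gene were averaged. Each of the 10 family genes had 1 probe, a cDNA clone, which can bind transcripts of close relatives.

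All 8224 genes were fitted with an intercept in limma 3.58.1 (lmFit, eBayes; R 4.3.3; 1 residual degree of freedom), with Benjamini-Hochberg adjustment over all genes and a threshold of 0.05, under which 1106 genes passed. The number of arrays limits the precision. For its p-values limma combines the spread of each gene between the 2 arrays with a prior drawn from all genes. The prior has 5.01 degrees of freedom against 1 residual degree of freedom, so it carries most of the weight. No p-value reflects a spread between known separate samples. The members, the gene lists and the tests were chosen with earlier results of these data known. The count of calls in every list stands against 13.4% of all genes that passed. Named genes are the family genes, in each pathway list the genes past limma farthest from 0 (up to 3 a side) and those needed to account for a small count, the 2 genes nearest to ninaD and crq, PPO1, PPO2 and srp. Other genes, such as list members that did not pass or markers, were named after their values were seen. Marked probes are those with ReAmp, rdnd or dupe in their name (469 in all). Gene order came from RefSeq's table of genes for the Release 6 assembly. Alternatives were no centring, scaled arrays, the probe of largest change for each gene, marked probes left out, a test against a 1.2-fold difference, and single arrays.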

Additional observations from a re-analysis of the deposited data

How the results depend on the processing

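The ratios of the 5 listed genes kept their direction without centring, with scaled arrays, with the probe of largest change and with marked probes left out. On single arrays 4 of them did too, while santa-maria lay at -0.03 by array A alone and at 0.34 by array B alone. The count of listed genes at least 2-fold stayed at 1 under these alternatives and on each array alone. Tested against a 1.2-fold difference, 535 genes passed in all, against 1106, and 2 of the other family genes, against 4. With marked probes left out, 2 of the other phagocytic and scavenger receptors passed, and with the probe of largest change 1 gene of the engulfment machinery did. Without centring, all values shifted by -0.016 on array A and -0.03 on array B. Calls by limma need both arrays, so they were not made on single arrays. Each array held RNA of both groups, so its ratio already sets 1 group against the other, and the fit tests these paired ratios. The labels number no samples of separate groups, so no further pairing was possible. The deposited values carry no intensities, so no filter on dim probes could be applied.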
